A study of Mus musculus with 12 samples.

Results

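The 10 core genes of the circadian clock, Arntl, Clock, Per1, Per2, Per3, Cry1, Cry2, Nr1d1, Nr1d2 and Dbp, were followed in mouse T helper 17 (Th17) cells exposed to GSK805, an inhibitor of ROR nuclear receptor activity in Th17 cells, and to ILA. The genes were chosen by name, as a list, with earlier results of these data known. All 10 were found among the 29522 genes of the deposited tables. Spleens of wild-type C57BL/6J mice gave the naive CD4+ T cells, which a Th17-inducing medium and stimulation of CD3 and CD28 turned into Th17 cells. The 4 groups of 3 biological replicates were exposed to vehicle, to 200 uM ILA, to 0.5 uM GSK805, or to these doses combined. The abbreviation ILA was taken to mean indole-3-lactic acid, a tryptophan metabolite of gut bacteria. All groups shared the strain, the medium and the activation. No animals are named in the labels, so a p-value reflects only how far these samples spread, which may be technical. Neither the length of exposure nor the clock time of harvest, on which the levels of clock genes depend, was given in the labels used here.

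The clock is a feedback loop of transcription. The proteins of Arntl (also called BMAL1) and Clock pair up and activate genes that carry E-boxes, among them the Per and Cry genes, Nr1d1, Nr1d2 and Dbp. PER and CRY proteins return to the nucleus and repress that pair. A second loop acts on Arntl through ROR response elements (ROREs), where ROR receptors activate and the REV-ERB receptors encoded by Nr1d1 and Nr1d2 repress. ROR activity also drives Th17 differentiation, through the same kind of element in Th17 genes such as Il17a.

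Promoter windows of 300 bases, from 250 before to 50 after a start site, were taken from RefSeq on GRCm38.p6, and 9 of the 10 genes had at least 1 window, 13 windows in all. Per2 had none. The windows were searched on both strands for the RORE consensus, for its core AGGTCA, for the E-box CACGTG and its variant CACGTT, and for the D-boxes TTATGTAA and TTACGTAA, the elements that DBP binds. Every RORE match ends in GGTCA, so it can overlap a match of the core. Of all 32851 windows, 0.384% held the RORE, 16.3% AGGTCA, 7.15% CACGTG, 4.68% CACGTT, 0.938% TTATGTAA and 0.119% TTACGTAA. The 4 windows shown belong to the 4 genes that were lower under GSK805. Arntl and Per1 have 2 windows each, and the one with matches is shown, the other (chr7:113207215-113207514 and chr11:69099902-69100201) holding no exact match. Capitals mark the matches as they stand on the gene's strand (TGACCT for AGGTCA and AACGTG for CACGTT on the other strand). The Arntl window shown, at chr7:113207261-113207560 on the plus strand, held the RORE AAAGTAGGTCA 26 bases after the start site. Both Arntl windows also hold AAAGTAGGTTA, which differs from the consensus at 1 base and was not counted. The Nr1d1 window, at chr11:98775328-98775627 on the minus strand, held CACGTT 28 bases before the start. The Per1 window shown, at chr11:69098699-69098998 on the plus strand, held CACGTG 166 bases and AGGTCA 137 bases before the start. The Cry1 window, at chr10:85185005-85185304 on the minus strand, held CACGTG 60 bases and CACGTT 79 bases before the start.
Arntl: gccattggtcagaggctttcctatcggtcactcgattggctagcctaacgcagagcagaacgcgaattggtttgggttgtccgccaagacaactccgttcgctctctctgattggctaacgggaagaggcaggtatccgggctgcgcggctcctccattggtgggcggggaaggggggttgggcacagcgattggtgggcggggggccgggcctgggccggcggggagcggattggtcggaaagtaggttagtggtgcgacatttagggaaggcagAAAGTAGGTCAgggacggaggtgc
Nr1d1: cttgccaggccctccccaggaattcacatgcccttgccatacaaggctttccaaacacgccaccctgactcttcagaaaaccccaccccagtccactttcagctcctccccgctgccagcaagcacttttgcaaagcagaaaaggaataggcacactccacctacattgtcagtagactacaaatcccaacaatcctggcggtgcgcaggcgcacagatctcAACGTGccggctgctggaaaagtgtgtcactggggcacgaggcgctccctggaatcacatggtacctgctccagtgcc
Per1: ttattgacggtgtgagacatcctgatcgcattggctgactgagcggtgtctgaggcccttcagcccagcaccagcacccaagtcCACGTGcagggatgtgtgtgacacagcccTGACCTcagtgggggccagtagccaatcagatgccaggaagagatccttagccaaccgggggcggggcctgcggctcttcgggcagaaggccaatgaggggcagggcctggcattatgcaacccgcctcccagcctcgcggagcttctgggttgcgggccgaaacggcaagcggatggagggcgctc
Cry1: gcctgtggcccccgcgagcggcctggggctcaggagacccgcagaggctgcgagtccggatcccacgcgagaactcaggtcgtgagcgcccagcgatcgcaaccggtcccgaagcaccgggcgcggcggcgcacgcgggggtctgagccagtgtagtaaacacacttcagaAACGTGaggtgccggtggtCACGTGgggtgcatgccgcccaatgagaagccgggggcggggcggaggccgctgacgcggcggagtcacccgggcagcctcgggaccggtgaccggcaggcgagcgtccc

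Among the other members, Nr1d2 held AGGTCA 77 bases before its start, Cry2 held CACGTT 166 bases before its start, and Per3 held TTATGTAA at 205 and at 158 bases before its start. One of the 3 Clock windows held AGGTCA 119 bases before the start. The Dbp window held none of the motifs. A match is a string of letters, not a measured binding site, and the files hold no binding data.

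**Figure D1:**
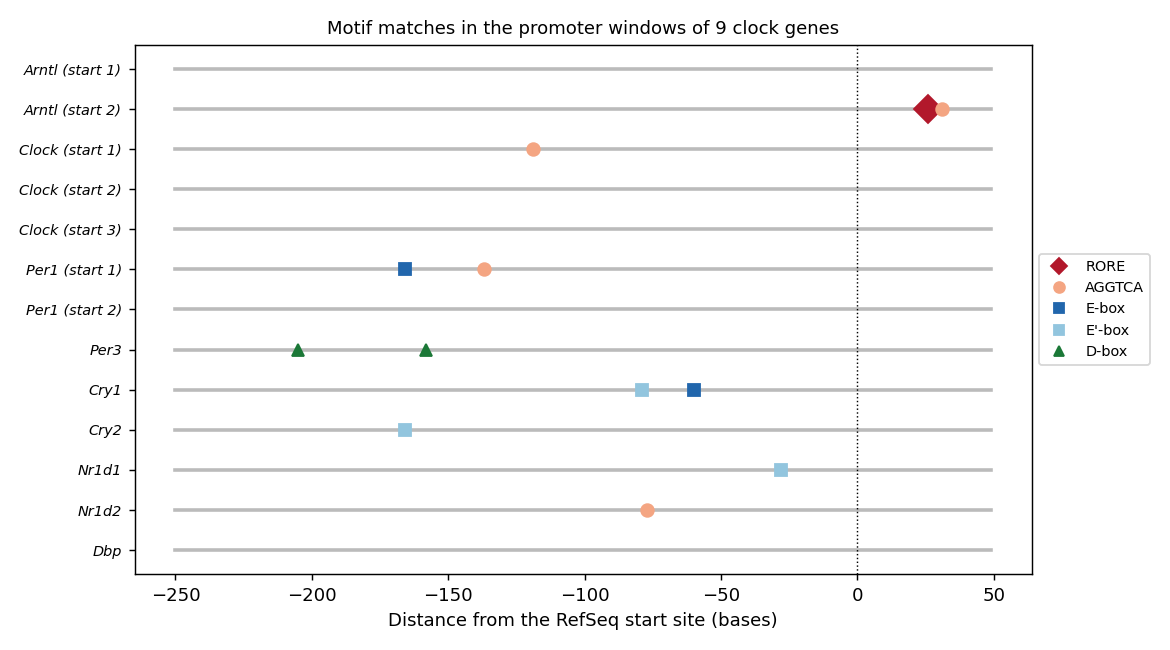
Motif matches in the promoter windows of 9 clock genes, with the distance from the RefSeq start site in bases on the x axis and 1 line per window (windows of 1 gene are numbered by coordinate). The RORE match lies 26 bases after the second Arntl start and overlaps the AGGTCA drawn beside it. No other window holds an exact match of the RORE consensus.

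Values are fragments per kilobase and per number of mapped reads (FPKM), a level scaled for gene length, and recovered depths ran from 17.84 M to 23.49 M reads per library. Differences are given as log2 fold changes of FPKM + 1, which understate the change of genes with low FPKM. A gene was tested if its mean reached 1 FPKM in at least 1 group (13511 genes) and called if its limma adjusted p was below 0.05. The CD4 T cell markers (6 of 6 detected) summed to 262 to 278 FPKM with vehicle, 278 to 298 with GSK805, 525 to 557 with ILA and 464 to 495 with both compounds. Marker sums stayed below 12 FPKM in every group for CD8 T and NK cells (1.24 to 5.47), B cells (1.5 to 2.83), myeloid cells (2.27 to 4.8) and stromal cells (3.45 to 11.4, nearly all Pecam1). Erythroid and platelet markers summed to 0.832 to 2.68 FPKM in 11 libraries and to 42.7 in ILA replicate 2, the only library with Hba-a1 (18.2 FPKM). Th17 genes were set beside the clock genes. Their list was drawn up with earlier results of these data known, so it is no independent check of the inhibitor. All 5 of 5 listed ROR targets (Il17a, Il17f, Il23r, Ccr6 and Il1r1) were lower with GSK805, where 7.08% of all tested genes were lower. Il17a was lower by 2.78 on the log2 scale (756 FPKM with vehicle, 109 with GSK805, limma adjusted p = 9.7e-07). The same 5 were also lower with ILA alone, without the inhibitor, where 24.0% of all tested genes were lower. Il17a was then at 159 FPKM, lower by 2.23 on the log2 scale (limma adjusted p = 6.4e-08).

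GSK805 alone lowered the activator Arntl, the REV-ERB gene Nr1d1 and the repressor genes Per1 and Cry1, and no tested member was called higher. Of the 9 members tested, 4 were lower and 0 higher, where 7.08% of all tested genes were lower, 15.7% higher and 22.8% called in either direction. The median log2 fold change was -0.19 over these 9 and 0.05 over all tested genes. The groups did not overlap for 7 of the 9, as for 38.7% of all genes. All 4 calls held under each of 22 alternative analyses. The direction of calls over all genes did depend on scaling: 68.9% were higher, against 55.9% under quantile normalization, 40.3% under median centring and 45.1% after removal of GC and length trends. Under each of these 3 scalings 5 members were lower, with Nr1d2 added, and 0 higher. Per2, however, lay at the threshold (limma adjusted p = 0.050011), without overlap between the groups. It was called higher with a pseudocount of 0.1, without trend and robust moderation, with voom, and without vehicle replicate 1 or ILA replicate 2. In these bulk libraries a lower level may mean fewer cells that express a gene or less RNA per cell, and these cannot be told apart.

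Under GSK805 in the presence of ILA, against ILA alone, Arntl, Nr1d1 and Cry1 were again lower, Dbp was lower and Per2 was higher. That is 4 lower and 1 higher of 9 tested members, where 8.64% of all genes were lower, 9.92% higher and 18.6% called. The median was -0.12 over the members and 0.02 over all tested genes. The groups did not overlap for 7 of 9 members, as for 37.2% of all genes. This comparison shares no library with the comparison of GSK805 and vehicle. Both are contrasts of the same model over all 12 libraries, however, so their p-values rest on a shared estimate of the spread. The count fell to 3 without ILA replicate 3 and to 3 without GSK805+ILA replicate 1, the calls lost being those of Arntl and Dbp.

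ILA alone lowered Arntl, Nr1d2, Cry1 and Per1 and raised Dbp and Cry2. These were 4 lower and 2 higher of 9 members, in a comparison that called 57.9% of all genes, 24.0% lower and 33.9% higher. A share of 6 in 9 members is therefore near the background. The groups did not overlap for those 6 members, and for 62.8% of all genes. The members' median was -0.09 and that of all tested genes 0.06. Of all calls 58.6% were higher, but 46.3% under quantile normalization, 40.9% under median centring and 47.6% after removal of GC and length trends, and median centring moved the median of all genes from 0.06 to -0.07. The sum of the CD4 T cell markers was higher in the same libraries (525 to 557 FPKM with ILA, 262 to 278 with vehicle), and its part in these differences was not tested. Without ILA replicate 2, the library with haemoglobin, 6 members were called as before.

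**Figure D2:**
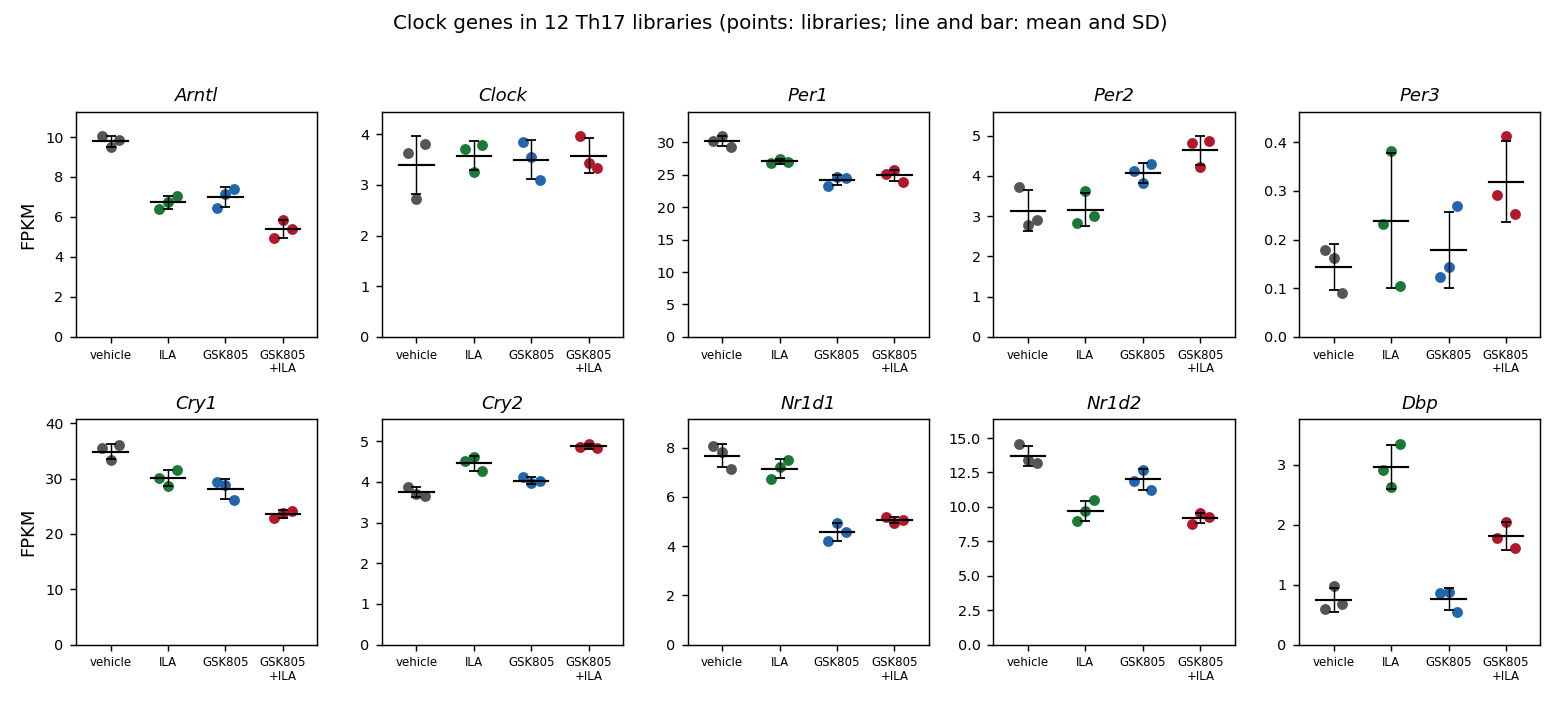
FPKM of the 10 clock genes (y axes from 0) in the 4 groups, where points are libraries and the line and bar give the mean and SD of 3. Arntl steps down from 9.79 FPKM with vehicle to 5.4 with both compounds, Nr1d1 is lower in the 6 libraries that received GSK805, and Dbp is higher in the 6 that received ILA.

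Arntl encodes BMAL1, the activator without which the loop stops. It stood at 10.03, 9.5 and 9.84 FPKM in the vehicle libraries, at 6.45, 7.14 and 7.41 with GSK805, at 6.38, 6.75 and 7.06 with ILA, and at 4.93, 5.86 and 5.42 with both. Every treated library lay below every vehicle library, the libraries with both compounds lay below all others, and those with 1 compound overlapped each other. The mean was 28.5% lower with GSK805 than with vehicle (7.0 ± 0.495 FPKM, from 9.79 ± 0.268; SD, n = 3), a log2 fold change of -0.43 (SE 0.07, limma adjusted p = 0.001). With ILA present, GSK805 lowered Arntl by 19.7%, to 5.4 ± 0.462 from 6.73 ± 0.34 FPKM (log2 fold change -0.27, limma adjusted p = 0.016). That second call rested on single libraries: the adjusted p was 0.0531 without ILA replicate 3 and 0.0592 without GSK805+ILA replicate 1, in a range of 0.00294 to 0.0592 over the alternatives. ILA lowered Arntl by 0.48 on the log2 scale when alone and by 0.32 on top of GSK805 (limma adjusted p = 7.9e-05 and 0.00275). The comparisons with vehicle share the vehicle libraries. With both compounds the mean was 44.8% below vehicle (log2 fold change -0.76, limma adjusted p = 3.1e-06). The gene (ENSMUSG00000055116) spans bases 113207465 to 113314126 of chromosome 7, and an antisense transcript, Gm45355, shares 0.439% of its exon bases.

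Clock, the partner of Arntl, was between 2.73 and 3.97 FPKM in all 12 libraries, and all groups overlapped. Its group means ran from 3.39 to 3.58 FPKM. No comparison called it, and the 95% confidence interval of the log2 fold change was -0.19 to 0.27 for GSK805 against vehicle and -0.24 to 0.23 in the presence of ILA.

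Nr1d1 encodes REV-ERBα, the receptor that competes with RORs for the RORE. Its FPKM was 8.08, 7.82 and 7.14 with vehicle, 6.72, 7.22 and 7.5 with ILA, 4.19, 4.94 and 4.58 with GSK805, and 5.17, 4.94 and 5.06 with both. The 6 libraries with GSK805 all lay below the 6 without it, while vehicle and ILA overlapped. The mean was 40.5% lower with GSK805 than with vehicle (4.57 ± 0.373 FPKM, from 7.68 ± 0.486; SD, n = 3), a log2 fold change of -0.64 (SE 0.07, limma adjusted p = 8.6e-05). In the presence of ILA it was 29.3% lower (5.06 ± 0.115 against 7.15 ± 0.397 FPKM; log2 fold change -0.43, limma adjusted p = 0.00143). ILA alone gave -0.09 (limma adjusted p = 0.259), although quantile normalization, median centring and removal of GC and length trends called that difference lower. The exons of Thra, the thyroid hormone receptor gene on the opposite strand, share 8.55% of the exon bases of Nr1d1. Thra stood at 3.73 FPKM with vehicle, 4.52 with GSK805, 6.46 with ILA and 7.27 with both, and a strand setting was not given in the sources used here, so reads of the shared bases cannot be assigned to either gene.

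Nr1d2 encodes REV-ERBβ, the related repressor, and it was lowest in the libraries with ILA. Its FPKM was 14.6, 13.4 and 13.2 with vehicle, 11.9, 12.7 and 11.2 with GSK805, 8.95, 9.73 and 10.5 with ILA, and 8.77, 9.53 and 9.3 with both. The libraries with ILA all lay below those without it, and the group with both compounds overlapped ILA alone. ILA lowered the mean by 29.3% from vehicle (9.71 ± 0.754 against 13.7 ± 0.743 FPKM; log2 fold change -0.46, limma adjusted p = 9.6e-05) and by 23.1% on top of GSK805 (log2 fold change -0.34, limma adjusted p = 0.00156). For GSK805 against vehicle the log2 fold change was -0.19 (limma adjusted p = 0.0633), without overlap between the libraries. That difference passed the threshold under quantile normalization, median centring, removal of GC and length trends, and voom, but with ILA present it was -0.07 (limma adjusted p = 0.51). The test of the difference between GSK805's effects on Nr1d2 with and without ILA gave 0.12 (limma adjusted p = 0.438).

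**Figure D3:**
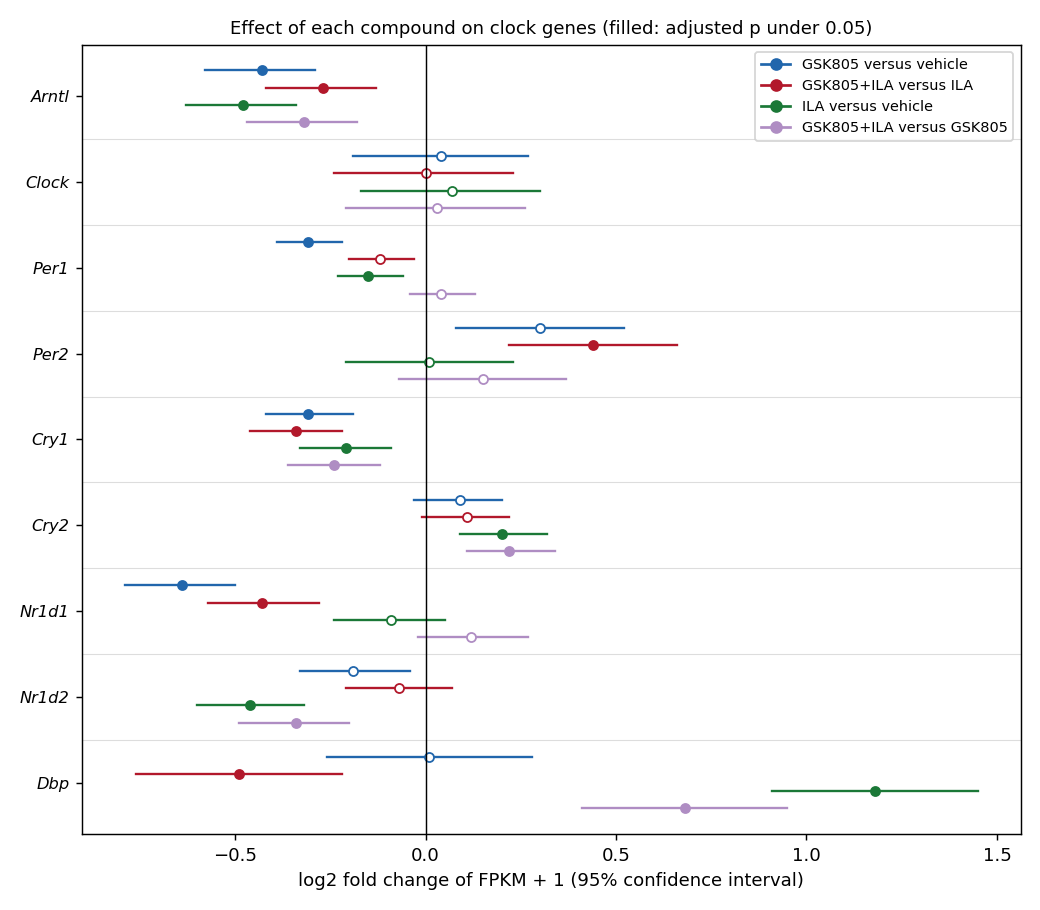
Log2 fold changes of FPKM + 1 (x axis) of the 9 tested clock genes with their 95% confidence intervals in 4 comparisons, filled where the adjusted p was under 0.05. Nr1d1 is lower in both comparisons of GSK805 (-0.64 and -0.43), Nr1d2 in both of ILA (-0.46 and -0.34), and Arntl and Cry1 in all 4.

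Cry1, a repressor of the Arntl and Clock pair, had the highest mean FPKM of the 10 genes in every group but the one with both compounds, where Per1 was higher (24.9 against 23.6). It stood at 35.5, 33.3 and 36.0 FPKM with vehicle, 30.1, 28.6 and 31.5 with ILA, 29.4, 28.9 and 26.1 with GSK805, and 22.8, 23.7 and 24.2 with both. As for Arntl, vehicle lay at the top and both compounds at the bottom, with ILA and GSK805 overlapping between them. GSK805 lowered the mean by 19.5% from vehicle and by 21.6% from ILA (log2 fold changes -0.31 and -0.34, SE 0.05 each, limma adjusted p = 0.00241 and 0.00188). ILA lowered it by 14.0% from vehicle and by 16.1% from GSK805 (log2 fold changes -0.21 and -0.24, limma adjusted p = 0.00579 and 0.00425).

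Per1, which encodes a partner of the CRY proteins in repression, stood at 30.2, 30.9 and 29.3 FPKM with vehicle, 26.8, 27.5 and 26.9 with ILA, 23.3, 24.7 and 24.5 with GSK805, and 25.1, 25.7 and 23.9 with both. Vehicle lay above ILA and ILA above the 2 groups with GSK805, which overlapped. GSK805 lowered the mean by 19.9% from vehicle (24.2 ± 0.743 against 30.2 ± 0.796 FPKM; log2 fold change -0.31, SE 0.04, limma adjusted p = 3.1e-04) and ILA lowered it by 10.1% (log2 fold change -0.15, limma adjusted p = 0.00613). In the presence of ILA the effect of GSK805 was -0.12, with no overlap and a limma adjusted p of 0.0546. That value passed the threshold under quantile normalization, after removal of GC and length trends, and with the replicate number as a block. Per1 was the 1 member of 9 whose response to GSK805 differed with ILA (interaction 0.19, SE 0.05, limma adjusted p = 0.0408), in a test that called 13.8% of all genes (5.15% positive, 8.7% negative). Positive were 37.2% of these calls (63.2% under median centring and 55.5% after removal of GC and length trends). The call was lost when any of 11 libraries was left out and under 3 other alternatives. Over all alternatives, called or not, the adjusted p ran from 0.00599 to 0.0931.

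Per2, another PER repressor gene, was higher with GSK805 when ILA was present. Its FPKM was 3.71, 2.78 and 2.9 with vehicle, 2.84, 3.62 and 3.01 with ILA, 4.13, 3.81 and 4.29 with GSK805, and 4.81, 4.21 and 4.87 with both. All 6 libraries with GSK805 lay above the 6 without it, while ILA overlapped vehicle. In the presence of ILA, GSK805 raised the mean by 46.6% (4.63 ± 0.362 against 3.16 ± 0.412 FPKM; log2 fold change 0.44, SE 0.1, limma adjusted p = 0.0118). Against vehicle the mean was 30.2% higher with an adjusted p just past the threshold (log2 fold change 0.30, limma adjusted p = 0.050011). The value was called there with a pseudocount of 0.1, without trend and robust moderation, with voom, and without vehicle replicate 1 or ILA replicate 2, in a range of adjusted p from 0.00935 to 0.161.

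Per3 was near the limit of detection and did not pass the filter, with 0.0908 to 0.413 FPKM and 18 to 89 reads per library. Group means were 0.144 FPKM with vehicle, 0.179 with GSK805, 0.239 with ILA and 0.319 with both, and only the vehicle libraries and those with both compounds did not overlap.

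Cry2, the second cryptochrome gene, stood at 3.88, 3.69 and 3.65 FPKM with vehicle, 4.12, 3.96 and 4.01 with GSK805, 4.51, 4.61 and 4.26 with ILA, and 4.86, 4.94 and 4.82 with both. No pair of groups overlapped, and the direction was opposite to that of Cry1. ILA raised the mean by 19.3% from vehicle (log2 fold change 0.20, limma adjusted p = 0.00553) and by 21.0% on top of GSK805 (log2 fold change 0.22, limma adjusted p = 0.00535). The first of these calls was lost under quantile normalization, median centring and removal of GC and length trends (adjusted p = 0.936, 0.257 and 0.628), and the second under quantile normalization (0.0506). GSK805 gave 0.09 against vehicle and 0.11 with ILA present (limma adjusted p = 0.267 and 0.187), the former turning to -0.01 after removal of GC and length trends. Exons of D930015M05Rik on the opposite strand share 4.67% of the exon bases of Cry2. D930015M05Rik stood at 1.44 FPKM with vehicle, 1.75 with GSK805, 2.0 with ILA and 2.68 with both, the same order of group means as Cry2. Reads of the shared bases cannot be assigned to either gene without a strand setting.

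Dbp, an output of the clock that activates genes through D-boxes, had the widest range of the members. Its FPKM was 0.588, 0.977 and 0.68 with vehicle, 0.856, 0.877 and 0.541 with GSK805, 2.91, 2.63 and 3.35 with ILA, and 1.78, 2.05 and 1.61 with both. Vehicle and GSK805 overlapped, ILA lay above all, and the group with both compounds lay between. The mean with ILA was 2.96 ± 0.365 FPKM against 0.748 ± 0.203 with vehicle (SD, n = 3), a log2 fold change of 1.18 (SE 0.12, limma adjusted p = 8.5e-06). These levels rested on 148 to 188 reads per library and on 39 to 60. GSK805 lowered Dbp by 38.8% when ILA was present (1.81 ± 0.226 against 2.96 ± 0.365 FPKM; log2 fold change -0.49, limma adjusted p = 0.0179) and gave 0.01 without it (limma adjusted p = 0.973; -0.07 under median centring). The former call was lost with a pseudocount of 0.1 (0.0557) and without ILA replicate 3 (0.0633), GSK805+ILA replicate 1 (0.052) or GSK805+ILA replicate 3 (0.07). The test of the difference between these effects gave -0.50 (SE 0.17, limma adjusted p = 0.0794), called only without GSK805 replicate 3 (0.048). Exons of Sphk2 on the opposite strand share 18.0% of the exon bases of Dbp. Without a strand setting, reads of these bases cannot be assigned to either gene. Sphk2 stood at 15.4 FPKM with vehicle, 13.7 with ILA, 15.3 with GSK805 and 13.7 with both, and neither ILA nor GSK805 against vehicle, nor GSK805 with ILA present, changed it by the test (limma adjusted p = 0.102, 0.993 and 0.972).

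With both compounds 8 of the 9 tested members differed from vehicle, all but Clock, where 52.1% of all genes were called (20.3% lower and 31.8% higher). The same 8 did not overlap between the groups, as 59.2% of all genes did not. Arntl, Cry1, Nr1d1, Nr1d2 and Per1 were lower and Per2, Dbp and Cry2 higher. The falls in log2 fold change were -0.76 for Arntl, -0.55 for Cry1, -0.53 for Nr1d2, -0.52 for Nr1d1 and -0.27 for Per1, and the rises were 0.69 for Dbp, 0.45 for Per2 and 0.31 for Cry2. All 8 calls held under the alternatives in which the gene was tested. Of all calls 61.1% were higher, but 40.2% under median centring, 47.8% under quantile normalization and 46.5% after removal of GC and length trends. Against GSK805 alone, ILA called 5 members, with Arntl, Nr1d2 and Cry1 lower and Dbp and Cry2 higher, where 39.5% of all genes were called, 55.7% of them higher (41.6% under median centring).

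The wider clock was described by 23 further genes, of which all 23 were in the files and 18 were tested. GSK805 against vehicle left 3 higher and 4 lower, with a median of -0.05. With ILA present 2 were higher and 3 lower, with a median of 0.00. ILA against vehicle left 9 higher and 7 lower, with a median of 0.08. The percentages of all genes called in these comparisons were 22.8%, 18.6% and 57.9%. Leaving out 1 library gave 4 to 8 calls in the first comparison, 3 to 5 in the second and 14 to 16 in the third.

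Among the D-box factors, Nfil3, which encodes a repressor of the genes that DBP activates, had the largest differences from vehicle of the tested genes on the list on the log2 scale of FPKM + 1. With voom on recovered reads the difference of Bhlhe41, a gene of low FPKM, was larger for GSK805 against vehicle (1.47, against -0.80 for Nfil3), and with both compounds the mean FPKM of Bhlhe41 was 365% higher and that of Nfil3 69.8% lower than with vehicle. Nfil3 stood at 29.8, 34.9 and 30.3 FPKM with vehicle, 17.2, 17.9 and 19.3 with GSK805, 9.34, 11.4 and 12.1 with ILA, and 9.94, 8.75 and 9.96 with both. Treated libraries lay below vehicle, and the 2 groups with ILA overlapped. Nfil3 fell by 0.77 on the log2 scale with GSK805 (limma adjusted p = 2.4e-04) and by 1.45 with ILA (limma adjusted p = 1.6e-07), and the effect of GSK805 was -0.17 with ILA present (limma adjusted p = 0.222). Its level thus fell where that of Dbp rose with ILA, while under GSK805 alone Nfil3 fell and Dbp was 0.758 FPKM against 0.748.

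Rora encodes a receptor that activates through the RORE. It was 12.7 to 13.0 FPKM in the means of the groups with ILA and 21.4 to 23.3 in those without, and ILA lowered it by 0.82 on the log2 scale (limma adjusted p = 1.1e-06). GSK805 gave -0.11 for Rora against vehicle (limma adjusted p = 0.249), a value called after removal of GC and length trends (0.00843) and without vehicle replicate 2 (0.0333).

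Among the repressors that bind E-boxes, the paralogs Bhlhe40 and Bhlhe41 (DEC1 and DEC2) were called in opposite directions with GSK805 and were both higher with ILA. Bhlhe41 was at 0.423, 0.486 and 0.548 FPKM with vehicle, 1.32, 1.23 and 1.49 with GSK805, 0.998, 0.902 and 1.39 with ILA, and 2.47, 1.97 and 2.34 with both. Only GSK805 and ILA overlapped. GSK805 raised Bhlhe41 by 0.66 against vehicle and by 0.64 with ILA present, on the log2 scale (limma adjusted p = 0.0019 and 0.00299). Bhlhe40, at 145 FPKM with vehicle, was 127 with GSK805 and 186 with ILA, and 147 with both. GSK805 lowered it by 0.33 on the log2 scale with ILA present (log2 fold change -0.33, limma adjusted p = 0.00168). Against vehicle the value was -0.19 (limma adjusted p = 0.0254), a call lost without a filter (0.0623) and when vehicle replicate 2 or 3 or GSK805 replicate 1 or 2 was left out (0.0589 to 0.0891). ILA raised Bhlhe40 by 0.36 and Bhlhe41 by 0.49 from vehicle on the log2 scale (limma adjusted p = 1.1e-04 and 0.00282), and by 0.21 and 0.47 on top of GSK805 (limma adjusted p = 0.00706 and 0.00593).

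Npas2, whose product can replace CLOCK as the partner of BMAL1, was low. It stood at 0.706, 0.712 and 0.557 FPKM with vehicle, 0.428, 0.365 and 0.278 with GSK805, 1.44, 1.25 and 1.53 with ILA, and 0.695, 0.818 and 0.737 with both. GSK805 lowered it with ILA present (log2 fold change -0.46, limma adjusted p = 0.0138) and gave -0.29 without (limma adjusted p = 0.0784), where the libraries did not overlap either. The value without ILA was called with a pseudocount of 0.1 (log2 fold change -0.74, adjusted p = 0.0456) and with voom (-0.88, 0.0167). It was also called under median centring (0.0341), without trend and robust moderation (0.0101) and after removal of GC and length trends (0.0292), and adjusted p ran up to 0.194 over the alternatives. In mean FPKM Npas2 was 45.8% lower with GSK805 than with vehicle and 46.7% lower with ILA present. Timeless, another gene of the list, was lower under GSK805 when ILA was present (2.19 against 3.42 FPKM, 35.9% lower; log2 fold change -0.48, limma adjusted p = 0.0204) and gave 0.00 against vehicle (limma adjusted p = 0.998). The remaining calls in the comparisons of GSK805 lay between -0.23 and 0.29. Against vehicle the kinase genes Csnk2a1 (0.29) and Gsk3b (0.22) were higher, and the ligase gene Fbxw11 (-0.17) and Nampt (-0.23), the gene of an NAD-producing enzyme, were lower on the log2 scale. With ILA present Csnk2a1 was higher (0.20). Of these and the Timeless call, those of Gsk3b, Nampt and Timeless and the second Csnk2a1 call each lost significance in 3 or more alternatives that left out a library. The Gsk3b call was also lost under quantile normalization, median centring and removal of GC and length trends (limma adjusted p = 0.114, 0.0925 and 0.131). The second Csnk2a1 call was lost under quantile normalization (0.0564). Both calls and that of Timeless were lost without a filter, and the first 2 also with only the groups compared.

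**Figure D4:**
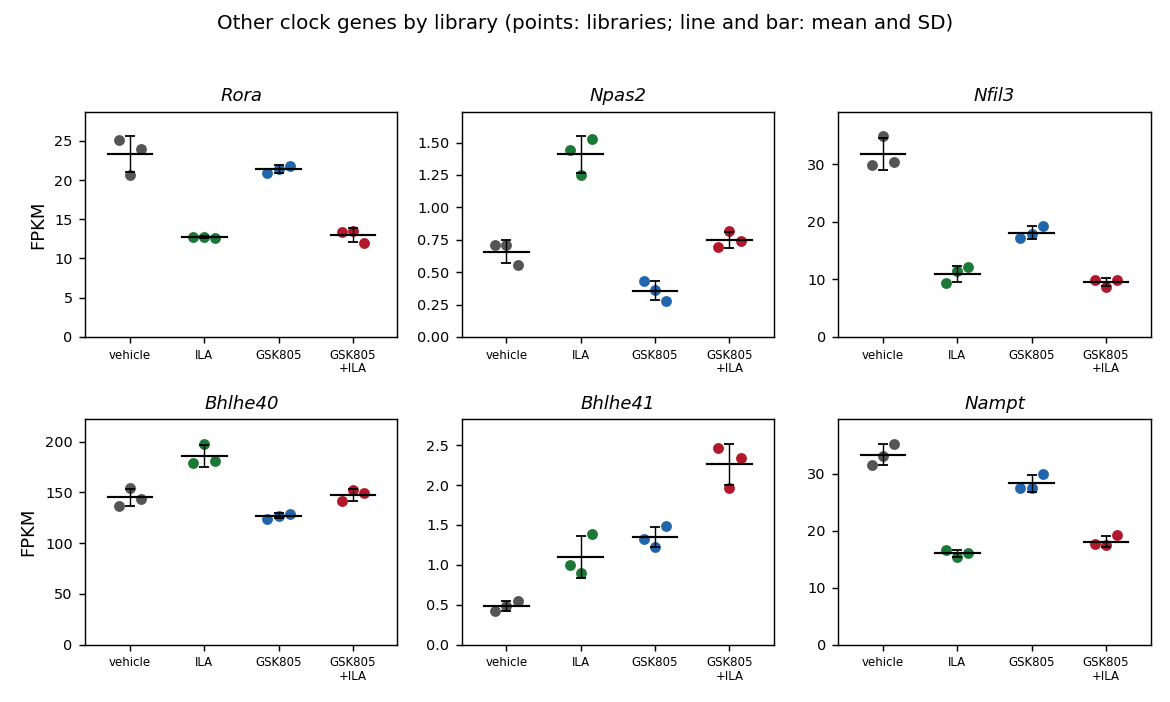
FPKM of Rora, Npas2, Nfil3, Bhlhe40, Bhlhe41 and Nampt (y axes from 0) in the 4 groups, where points are libraries and the line and bar give the mean and SD of 3. Rora is lower in the 6 libraries with ILA, Npas2 is highest with ILA alone (1.41 FPKM), and Bhlhe41 is highest with both compounds (2.26 FPKM).

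**Figure D5:**
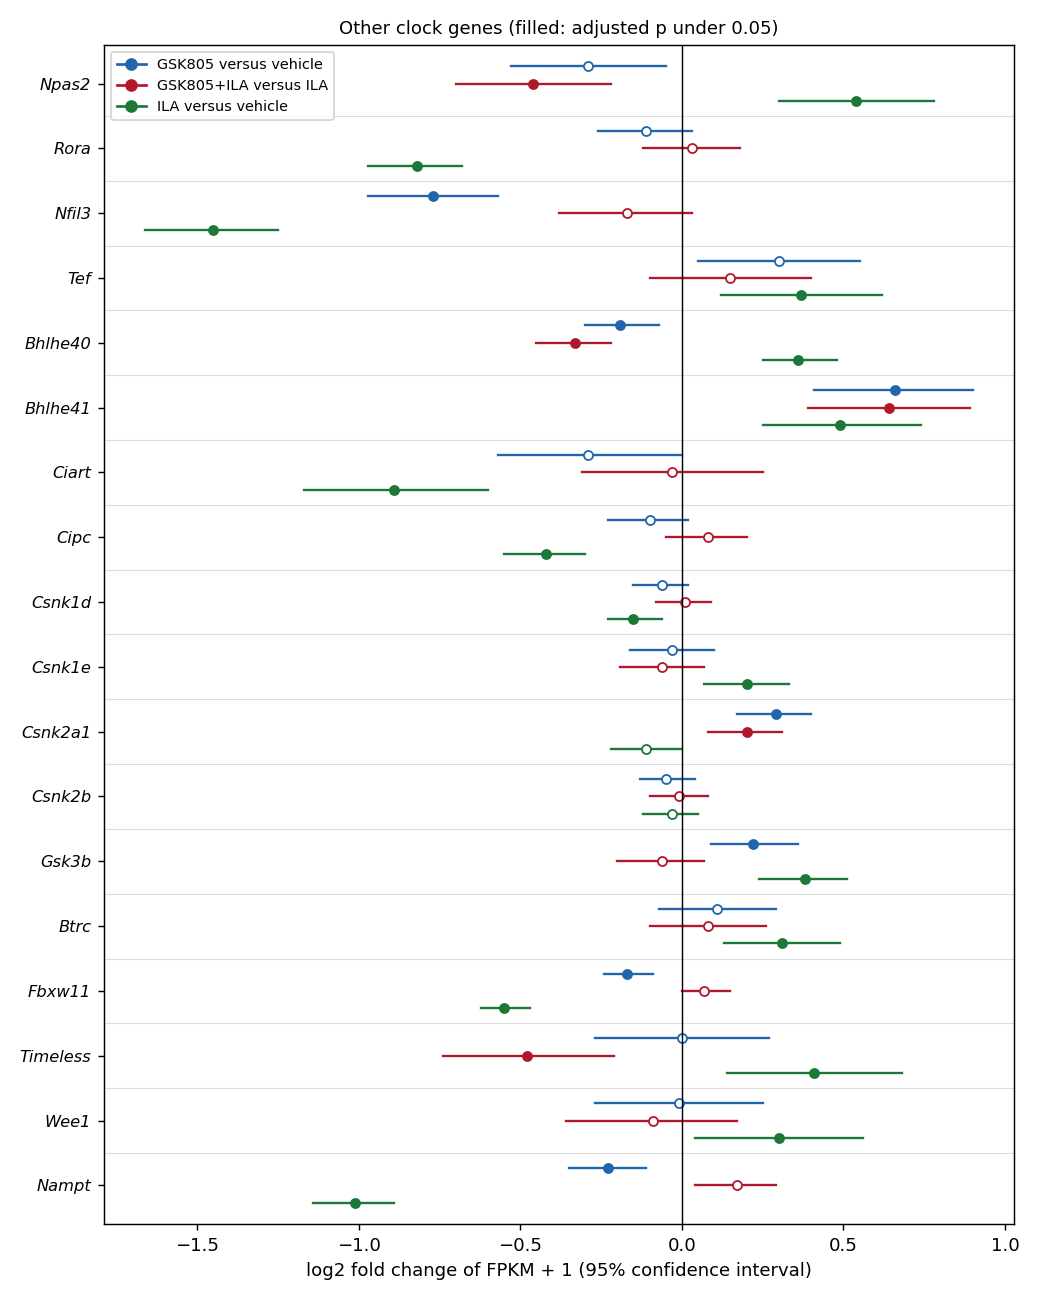
Log2 fold changes of FPKM + 1 (x axis) with 95% confidence intervals of the 18 tested genes of the wider clock in 3 comparisons, filled where the adjusted p was under 0.05. Bhlhe41 is higher in all 3 (0.66, 0.64 and 0.49), and the falls of Nfil3 (-1.45) and Nampt (-1.01) with ILA lie farthest to the left.

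The genes most like the members with the widest ranges, Dbp (1.18 on the log2 scale between group means) and Arntl (0.76), were found by Pearson's r over the 12 libraries. For Dbp they were Gm10535 (r = 0.99), Gpi1 (0.988), which encodes a glycolytic enzyme, and Stim1 (0.984), which encodes a calcium sensor. For Arntl they were Fam107b (0.981), Slc15a3 (0.979) and Klrc2 (0.977), the last a gene of the killer lectin-like receptors. Stim1 stood at 4.33 FPKM with vehicle, 9.61 with ILA, 4.71 with GSK805 and 6.93 with both, the same order of group means as Dbp, in which vehicle and GSK805 overlapped. The 12 libraries fall into 4 treatment groups, so r mainly describes the pattern of 4 group means.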

How the data were processed

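RNA sequencing of 12 libraries in 4 groups of 3 was analysed from FPKM tables as deposited by the authors, 1 per library. Bowtie was the aligner, mm10 the build and FastQC 0.11.2 the quality check, per the submitters' processing notes. A counting program, annotation, strand setting or read length was not given in the sources used here. Members, gene lists and tests were chosen with earlier results of these data known.

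FPKM were transformed to log2 after adding 1, genes with a group mean of at least 1 FPKM were kept, and limma 3.58.1 (R 4.3.3; trend and robust moderation) fitted the 4 group means over all 12 libraries. Contrasts of that model gave the comparisons, with Benjamini-Hochberg adjustment over all 13511 tested genes and calls below 0.05. The procedure was also run on simulated reads with changes set in the GSK805 group. Those reads held no scaling shift between groups, so that run cannot bear on the dependence of calls on scaling. Named were all 10 members, the genes of a list of 23 other clock genes that GSK805 changed (some further genes are not reported here), 5 Th17 genes, and the 3 genes most correlated with each of the 2 members of widest range; others on the list were described where they bear on these. Whole reads were recovered from FPKM with GENCODE vM21 exon lengths: 98.7% to 98.9% of values per library came within 0.1 of a whole read, and 1 read over 1 kb of exon equals 0.0426 to 0.056 FPKM. Same-numbered replicates did not deviate together (r from -0.082 to 0.078 over 18 pairs).

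Alternatives were a pseudocount of 0.1, no filter, a filter at 5 FPKM, the replicate number as a block, quantile normalization, median centring, only the groups compared, no trend or robust moderation, voom on recovered reads, and each library left out in turn. Removal of GC and length trends was added after seeing the data. Python 3.11.15, numpy 2.4.6, pandas 2.3.3 and matplotlib 3.10.9 made tables and plots.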

Additional observations from a re-analysis of the deposited data

Results flagged for a closer look

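The effect of GSK805 with ILA present differed from its effect without ILA, by the interaction test of limma, for 5 of the 27 tested clock genes. The log2 difference was 0.19 for Per1 (adjusted p = 0.0408), where GSK805 gave -0.31 without ILA and -0.12 with it. It was 0.59 for Nfil3 (adjusted p = 0.0142), -0.29 for Gsk3b (adjusted p = 0.046), 0.24 for Fbxw11 (adjusted p = 0.00909) and 0.40 for Nampt (adjusted p = 0.00949). A positive value means a smaller fall with ILA present for Per1 and Nfil3, and for Nampt and Fbxw11 a fall without ILA (-0.23 and -0.17) and a positive value with it (0.17 and 0.07, neither called). The Nfil3, Fbxw11 and Nampt differences were called in every alternative run, whereas that of Gsk3b was lost in 15 of its 21 alternatives (up to adjusted p = 0.105) and that of Per1 in 14 (up to 0.0931). Across all genes 13.8% were called in this test.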

How the results depend on the processing

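For members, 29 values were called. Of their 628 recomputed values 604 kept direction and call, 24 kept direction but lost the call, and 0 turned. Some of these could not turn: leaving out a library outside the groups compared changes the adjusted p but not the log2 value. A filter at 5 FPKM left 5 members to test (Arntl, Per1, Cry1, Nr1d1 and Nr1d2). Of these 5, 3 were called for GSK805+ILA against ILA, 3 for GSK805+ILA against GSK805, 5 for GSK805+ILA against vehicle and 4 for ILA against vehicle, where 5, 5, 8 and 6 of 9 were called before. For the interaction it was 0 without a filter, under quantile normalization and without trend and robust moderation, and the cause was not tested. Leaving out 1 library gave 4 to 5 members for GSK805 against vehicle, 3 to 5 with ILA present, 6 for ILA against vehicle, 5 for both against GSK805, 8 for both against vehicle and 0 to 1 for the interaction. Without a filter 1067 genes were called in the interaction, against 1871. With the replicate number as a block 6 members were called for GSK805+ILA against ILA, Per1 being added (adjusted p = 0.0437), and the number of members called in the other comparisons did not move; same-numbered libraries share only a number, so the samples are not treated as pairs.

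Some values near 0 that were not called changed sign. For Clock under quantile normalization, median centring and removal of GC and length trends, in that order, they were -0.04, -0.04 and -0.08 for GSK805 against vehicle, -0.13, -0.07 and -0.01 for ILA against vehicle, -0.11, -0.07 and -0.03 for both against vehicle, and 0.06, 0.03 and 0.06 for the interaction. Clock was also 0.02 under quantile normalization for both against ILA, and -0.07 and -0.03 under quantile normalization and median centring for both against GSK805. Under the same 3 scalings Dbp was -0.02, -0.07 and -0.07 for GSK805 against vehicle and Per2 was -0.19, -0.12 and -0.14 for ILA against vehicle. Cry2 was -0.0037 under quantile normalization and -0.01 after removal of the trends for GSK805 against vehicle. Under median centring and removal of the trends Per1 was -0.02 and -0.07 for both against GSK805 and Cry1 was 0.04 and 0.0041 for the interaction. Leaving out 1 library moved Clock from -0.07 to 0.11 (GSK805 against vehicle), -0.06 to 0.04 (both against ILA), -0.04 to 0.14 (ILA against vehicle), -0.04 to 0.08 (both against GSK805), -0.05 to 0.13 (both against vehicle) and -0.11 to 0.07 (interaction). It moved Dbp from -0.06 to 0.10 for GSK805 against vehicle, Per2 from -0.07 to 0.11 for ILA against vehicle, and the interactions of Cry1 from -0.08 to 0.0012 and of Cry2 from -0.01 to 0.04. The cause was not tested.

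Depth limits the lowest genes: Per3 rested on 18 to 89 reads per library and Dbp on 34 to 188. With 3 libraries per group, small differences such as those of Nr1d2 and Per2 under GSK805 lie at the threshold. The labels give neither a series of harvest times nor the clock time of harvest. Without a time series a shift of phase and a change of level cannot be told apart.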

Other observations

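Of the 23 further clock genes, 5 did not reach 1 FPKM in any group and were not tested. Usp2, which encodes a deubiquitinase under clock control, had means of 0.554 FPKM with vehicle, 0.477 with ILA, 0.65 with GSK805 and 0.637 with both. Arntl2, a paralog of Arntl, had 0.16 FPKM with vehicle and 0.103 to 0.118 in the other groups. Hlf, a relative of Dbp, had 0.104 FPKM with vehicle, 0.0625 with ILA, 0.102 with GSK805 and 0.0603 with both, from 2 to 22 reads per library. Fbxl21 had at most 4 reads in a library, and Rorb was listed at 0 in every library of 3 groups and had at most 2 reads in the libraries with both compounds.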
